A study of Mus musculus with 3 samples.

Results

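The genes described here are the 3 VEGF receptor tyrosine kinases (Kdr, Flt1 and Flt4), the 2 neuropilins (Nrp1 and Nrp2) and 4 of their ligands (Vegfa, Vegfb, Vegfc and Pgf). They were taken by symbol from the gene list of the deposited matrices, which made 9 genes of 32285, and all 9 were listed in every library. The study profiled single cells digested from arteries of wild-type (WT) mice with the 10x Genomics Chromium 3' kit, in 3 libraries. The mice were given vehicle, sunitinib alone, or sunitinib and Yoda1 in combination. Each group was 1 library, so no difference between groups below has a replicate check, and no test between groups was made. Sunitinib is a drug that blocks several tyrosine kinase receptors, including those for VEGF and PDGF and the receptor KIT. Yoda1 is a small-molecule agonist of the mechanosensitive ion channel Piezo1. The labels name all libraries as vascular tissue at 3 weeks, without saying whether that is a treatment time or an age. The title of the sunitinib library names only a TKI (tyrosine kinase inhibitor) and that of the third library only Yoda1; the series design names sunitinib and the combination. Strain, sex, dose and the number of mice behind a library are not given in the sources used here.

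Kdr (VEGFR2) is the main signalling receptor for Vegfa in blood vessel endothelium. Flt1 (VEGFR1) binds Vegfa, Vegfb and Pgf, and its soluble form acts as a decoy; Flt4 (VEGFR3) binds Vegfc and is best known from lymphatic endothelium. Neuropilins have no kinase domain and act as co-receptors, for VEGF ligands with the receptor kinases and for class 3 semaphorins with plexins. The ligands are secreted proteins that commonly come from cells around the endothelium, such as mural cells, fibroblasts and macrophages. The matrices hold 1 count per gene and cell, so soluble and membrane-bound forms of Flt1, and splice forms of Vegfa, could not be told apart.

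Cells were kept with at least 500 unique molecular identifiers (UMIs, the tags that mark single captured mRNA molecules), at least 300 genes and at most 15% mitochondrial UMIs, which left 3947 vehicle, 4148 sunitinib and 3130 sunitinib plus Yoda1 cells of 4491, 4506 and 5118 barcodes. Classes were gated on raw UMIs of Myh11 and Acta2 (smooth muscle), Pecam1 and Cdh5 (endothelium), Dcn and Pdgfra (fibroblasts), Csf1r (macrophages), Cd79a and Ms4a1 (B cells), and Cd3d and Cd3e (T cells). The third library stood apart from the other two in its cells: smooth muscle cells made up 92.1% of kept vehicle cells, 87.3% of sunitinib cells and 2.46% of sunitinib plus Yoda1 cells, while B cells made up 31.5% and T cells 19.4% of the last. It held 330 endothelial cells, against 133 with vehicle and 157 with sunitinib, and they differed in kind. The summed level of 6 capillary markers in endothelial cells was 137, 121 and 6432 CPM (counts scaled to a total of 1000000 UMIs) in vehicle, sunitinib and sunitinib plus Yoda1, that of 8 large-vessel markers was 5694, 6026 and 1186 CPM, and that of 6 lymphatic markers was 2.05, 9.20 and 1131 CPM. It was also shallower, with a median of 5451 UMIs per kept cell against 16561 and 15902. Treatment, tissue composition and library therefore cannot be told apart in any comparison with it. Few kept barcodes were shared between libraries, at most 5 for any pair.

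Levels are given as CPM of the summed UMIs of a class, with exact 95% Poisson intervals, and shares of cells with at least 1 UMI have exact 95% binomial (Clopper-Pearson) intervals. Both cover counting error only. Only class sums of at least 50 cells were given levels, which left 10 sums: endothelium and smooth muscle in all 3 libraries, and fibroblasts (155 cells), macrophages (99), B cells (987) and T cells (606) in the sunitinib plus Yoda1 library. Smooth muscle there rested on 77 cells. Levels are compared between classes and libraries for the same gene, not between genes.

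The promoters of Kdr and Flt1 are shown because, of the 3 receptor kinases, these had the largest endothelial ratios between sunitinib plus Yoda1 and sunitinib. Each line gives the 250 bases before the annotated start, 5′ to 3′ on the gene's own strand, from RefSeq on GRCm38.p6, at chr5:75978456-75978705 and chr5:147726012-147726261, both on the minus strand. Capitals mark GGAA and its reverse complement TTCC, the core letters of binding motifs of ETS factors, a family known for its roles in endothelial gene regulation.
Kdr: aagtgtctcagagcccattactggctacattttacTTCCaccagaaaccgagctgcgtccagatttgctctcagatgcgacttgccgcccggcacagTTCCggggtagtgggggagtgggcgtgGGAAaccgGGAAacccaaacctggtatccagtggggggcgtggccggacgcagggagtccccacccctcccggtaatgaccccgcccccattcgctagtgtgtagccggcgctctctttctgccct
Flt1: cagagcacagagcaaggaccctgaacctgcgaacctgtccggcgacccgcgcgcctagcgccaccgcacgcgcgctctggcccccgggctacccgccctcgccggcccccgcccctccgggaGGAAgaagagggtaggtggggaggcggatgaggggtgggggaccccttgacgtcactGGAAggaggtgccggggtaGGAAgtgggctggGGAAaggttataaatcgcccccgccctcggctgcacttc
Both windows held 4 matches. In Kdr 2 read GGAA and 2 TTCC, and in Flt1 all 4 read GGAA. Such short letters are common: 93.4% of 32851 promoters of the same table and window held at least 1 match, and 33.4% held at least 4. A match is a string of letters and not evidence of binding. All 9 genes had an entry in that table.

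Kdr (ENSMUSG00000062960; mm10 chr5:75932827-75978458, minus strand) had by far its highest level in the endothelium of the sunitinib plus Yoda1 library. The endothelial level was 5.47 CPM (2.36 to 10.8; 8 UMIs) with vehicle, 4.03 CPM (1.62 to 8.30; 7 UMIs) with sunitinib and 775 CPM (739 to 813; 1691 UMIs) with sunitinib plus Yoda1. A Kdr UMI was found in 5.26%, 3.82% and 82.7% of these cells. After each cell was thinned to 2000 UMIs the shares were 1.57%, 2.01% and 67.2%, with the order of vehicle and sunitinib turned. Vehicle and sunitinib lay within each other's intervals and the third library far above both. B cells, which should lack the receptor, had a Kdr UMI in 0.203% of cells at a median depth of 4804 UMIs, close to the 4927 UMIs of the endothelial cells beside them. Other classes of that library held more: macrophages 6.64 CPM (3.04 to 12.6; 9 UMIs), fibroblasts 2.61 CPM (0.846 to 6.08) and T cells 1.18 CPM (0.434 to 2.57). All of these intervals overlapped those of vehicle and sunitinib endothelium, so the low endothelial levels there were not set apart from these classes. Smooth muscle cells held 5, 1 and 0 Kdr UMIs, that is 0.0714 and 0.0160 CPM in vehicle and sunitinib, and the 0 UMIs in the third library allow up to 2.55 CPM.

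Flt1 (ENSMUSG00000029648; mm10 chr5:147561604-147726011, minus strand) was found in endothelium and, at a lower level, in smooth muscle. Endothelial levels were 75.2 CPM (61.8 to 90.6) with vehicle, 33.4 CPM (25.3 to 43.1) with sunitinib and 1565 CPM (1513 to 1619) with sunitinib plus Yoda1. None of these intervals overlapped. The shares of endothelial cells with a UMI were 30.1%, 22.9% and 87.9%. In smooth muscle Flt1 stood at 15.6 CPM (14.7 to 16.6), 13.4 CPM (12.5 to 14.4) and 15.3 CPM (9.08 to 24.2), with a UMI in 20.5%, 16.9% and 14.3% of cells. The smooth muscle sum thus held most Flt1 UMIs of the first 2 libraries, 88.2% with vehicle and 90.9% with sunitinib.

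Free endothelial RNA was checked as a background for the smooth muscle signal. Of 6 endothelial genes, Tie1, Egfl7, Cldn5, Ecscr and Emcn stood in vehicle smooth muscle at 0.0117% to 0.0939% of their endothelial CPM and Esam at 3.64%, whereas Flt1 stood at 20.8%. With sunitinib the same 5 genes stood at 0.0180% to 0.199%, Esam at 4.90% and Flt1 at 40.2%. In both libraries Flt1 stood above all 6 genes on this measure. In the third library Flt1 stood above the same 5 genes but below Esam. Its smooth muscle level, from 18 UMIs in 11 cells, was 0.978% of its endothelial CPM. Esam stood at 9.61%, Ecscr at 0.523% and Tie1 at 0.355%, with 0 UMIs of Egfl7, Cldn5 and Emcn. B cells there held 3.06 CPM of Flt1.

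Flt4 (ENSMUSG00000020357; mm10 chr11:49609263-49652739, plus strand) was an endothelial gene in all 3 libraries. Its endothelial level was 13.7 CPM (8.35 to 21.1; 20 UMIs in 20 cells), 15 CPM (9.77 to 21.9; 26 UMIs in 19 cells) and 131 CPM (116 to 147; 286 UMIs in 87 cells). Smooth muscle held 0, 1 and 0 Flt4 UMIs, and B cells 0, which allows up to 0.539 CPM. The vehicle and sunitinib values came from endothelial cells with 0 and 1 UMIs of Prox1, the transcription factor that marks lymphatic endothelium.

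Nrp1 (ENSMUSG00000025810; mm10 chr8:128358604-128503363, plus strand) was found in endothelium, fibroblasts, macrophages, smooth muscle and T cells. Endothelial levels were 369 CPM (339 to 402), 484 CPM (452 to 518) and 715 CPM (680 to 751), with a UMI in 82.0%, 81.5% and 81.5% of cells. Smooth muscle stood at 14.9, 13.4 and 66.4 CPM. In the sunitinib plus Yoda1 library fibroblasts held 303 CPM (279 to 329), macrophages 223 CPM (198 to 249) and T cells 42.6 CPM (37.1 to 48.6), against 3.06 CPM (1.78 to 4.89) in B cells. The order of the 4 highest sums was the 3 endothelial ones and then fibroblasts, and neighbours in it had intervals that did not overlap. In T cells the UMIs came from 68 of 606 cells (11.2%), against 0.811% of B cells, at median depths of 7853 and 4804 UMIs.

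Nrp2 (ENSMUSG00000025969; mm10 chr1:62703285-62818695, plus strand) was close to undetected in the endothelial cells of the first 2 libraries. They held 2 UMIs with vehicle (1.37 CPM) and 0 with sunitinib, which allows up to 1.73 CPM, against 635 UMIs and 291 CPM (269 to 315) with sunitinib plus Yoda1, where 52.1% of cells had a UMI. Smooth muscle stood at 1.80, 1.83 and 13.6 CPM. Macrophages held 111 CPM (93.6 to 130), fibroblasts 14.6 CPM, B cells 7.91 CPM (5.75 to 10.6) and T cells 2.56 CPM (1.36 to 4.38). Endothelium and macrophages of the third library thus stood apart from all other sums. The annotation places Gm37121 within Nrp2 on the same strand and Gm29083 on the other, and Mir1903 within Nrp1, so reads from such overlaps could be split or misassigned.

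**Figure D1:**
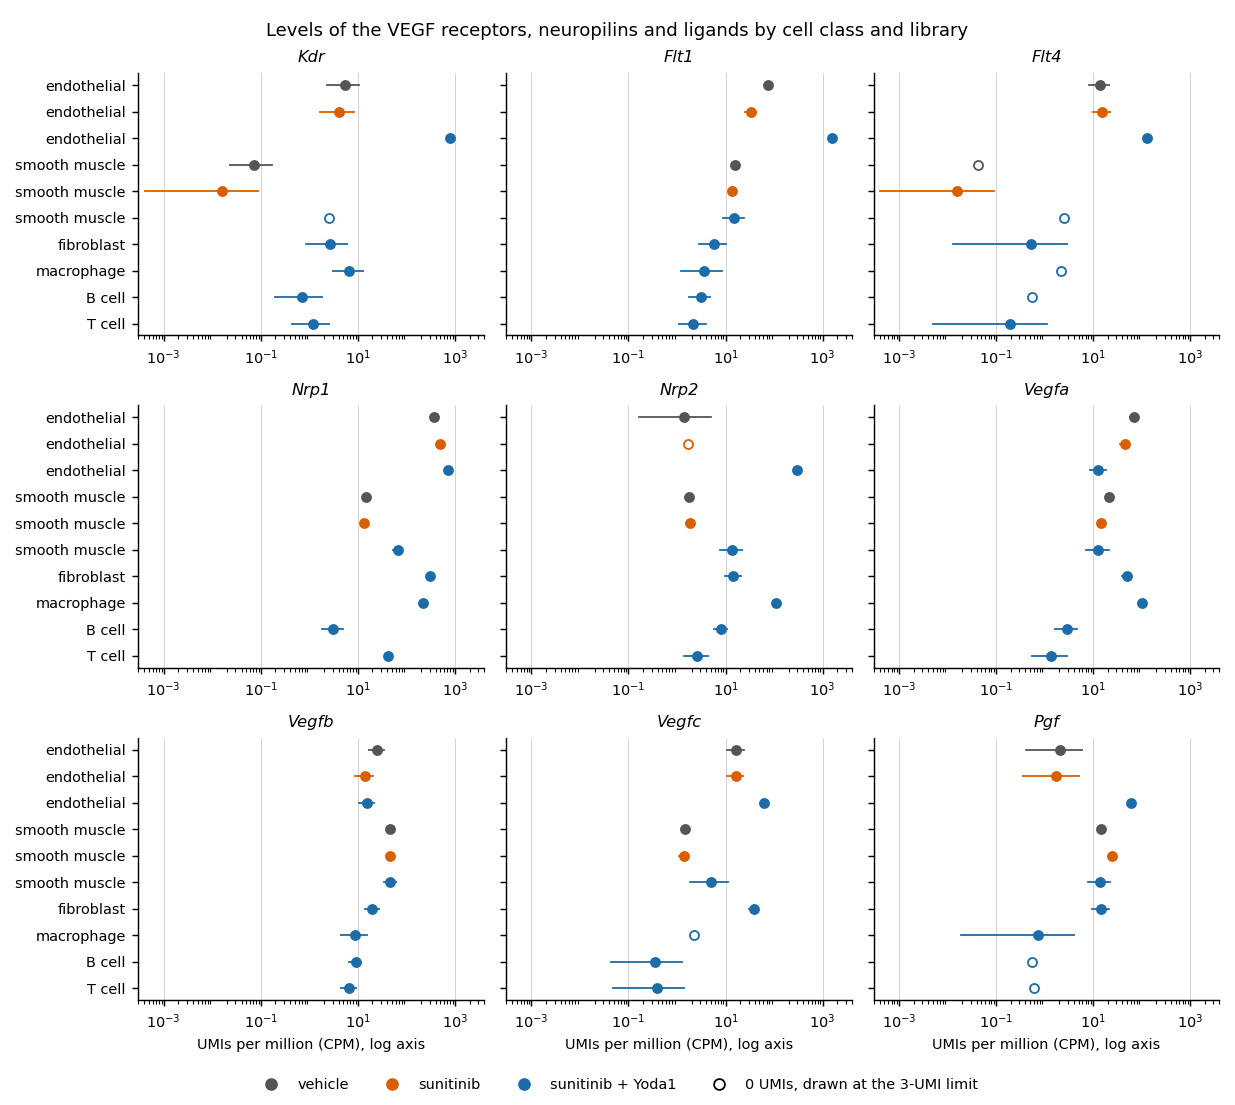
Level of each gene (x axis, CPM on a log axis) in each class and library sum of at least 50 cells (y axis), with exact 95% Poisson intervals as lines and colour for the library; open circles are sums with 0 UMIs, drawn at the level that 3 UMIs would give. Kdr, Flt1, Flt4 and Nrp2 in endothelium lie far higher with sunitinib plus Yoda1 (775, 1565, 131 and 291 CPM) than with vehicle (5.47, 75.2, 13.7 and 1.37 CPM), while Vegfb in smooth muscle lies at 45.4 to 46.8 CPM in all 3 libraries.

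Within the sunitinib plus Yoda1 library the endothelial cells were split by markers. A group of 258 cells had a UMI of the capillary genes Gpihbp1 or Cd300lg and none of Prox1. Another 22 cells had a Prox1 UMI, and 50 had none of the 3. The Prox1 group was not cleared of cells with a capillary marker. Of the 330 cells, 60 lacked both Gpihbp1 and Cd300lg, and 50 of these were the unmarked ones. Those 60 cells held 19 Flt4 and 63 Kdr UMIs, 11 and 46 of them in unmarked cells. Most of the 168 Flt4 and 130 Kdr UMIs of the Prox1 group thus lay in cells that also had a capillary marker. Kdr stood at 998 CPM (948 to 1050) in the capillary-marked cells, 512 CPM (428 to 608) in the Prox1 cells and 112 CPM (82.3 to 150) in the cells with neither. Flt1 followed another order, with 2061, 557 and 228 CPM in the capillary-marked, unmarked and Prox1 cells. Flt4 was highest in the Prox1 cells at 662 CPM (565 to 770), against 70.5 CPM (57.8 to 85.2) and 26.9 CPM (13.4 to 48.1) in the capillary-marked and unmarked cells. The neuropilins split the same cells in opposite directions: Nrp1 stood at 963 CPM in capillary-marked and 47.3 CPM (24.4 to 82.6) in Prox1 cells, and Nrp2 at 269 and 725 CPM. On the log2 scale the Prox1 cells were lower than the capillary-marked cells by -4.35 (-5.30 to -3.54) for Nrp1 and -3.17 (-3.57 to -2.80) for Flt1, and higher by 3.23 (2.87 to 3.59) for Flt4 and 1.43 (1.17 to 1.68) for Nrp2. These are differences between cells of a single library, with median depths of 4498, 9627 and 7863 UMIs for capillary-marked, Prox1 and unmarked cells. Of the 87 cells with a Flt4 UMI, 13 also had Prox1, so most Flt4 cells were not Prox1 cells.

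By these 3 markers alone, the 50 unmarked cells are the nearest match to the endothelium of the other libraries. There 132 of 133 vehicle and 156 of 157 sunitinib cells carried none of the 3. Among them Vwf, the clotting factor gene of large-vessel endothelium, stood at 918, 991 and 1047 CPM in vehicle, sunitinib and sunitinib plus Yoda1. Kdr in these unmarked cells was 5.50, 4.06 and 112 CPM, a log2 ratio of 4.79 (3.63 to 6.18) between the last 2 libraries, and Flt1 was 67.4, 33.7 and 557 CPM, a ratio of 4.05 (3.63 to 4.49). Both ratios were smaller than over all endothelial cells and remained past 1.5-fold. Nrp1 turned, with 369, 482 and 208 CPM and a ratio of -1.21 (-1.55 to -0.89). For Flt4 the unmarked cells gave 13.7, 15.1 and 26.9 CPM, and the interval of the ratio included 0 (0.83, -0.33 to 1.90). Nrp2 rose from 0 UMIs with sunitinib to 42 UMIs (103 CPM) with sunitinib plus Yoda1, a log2 ratio of 5.88 against 3 UMIs. Vegfc was 16.2 and 147 CPM in the same libraries (3.17, 2.51 to 3.88). Vwf belongs to the list of 8 large-vessel markers, and alone it does not show that these cells match. Gja5, Fbln5 and Sox17 of that list were also counted in the unmarked cells, but their values are not given here. Over all endothelial cells the 8 markers summed to 1186 CPM with sunitinib plus Yoda1, against 6026 CPM with sunitinib. Whether the unmarked cells of the libraries are of the same kind was not tested.

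**Figure D2:**
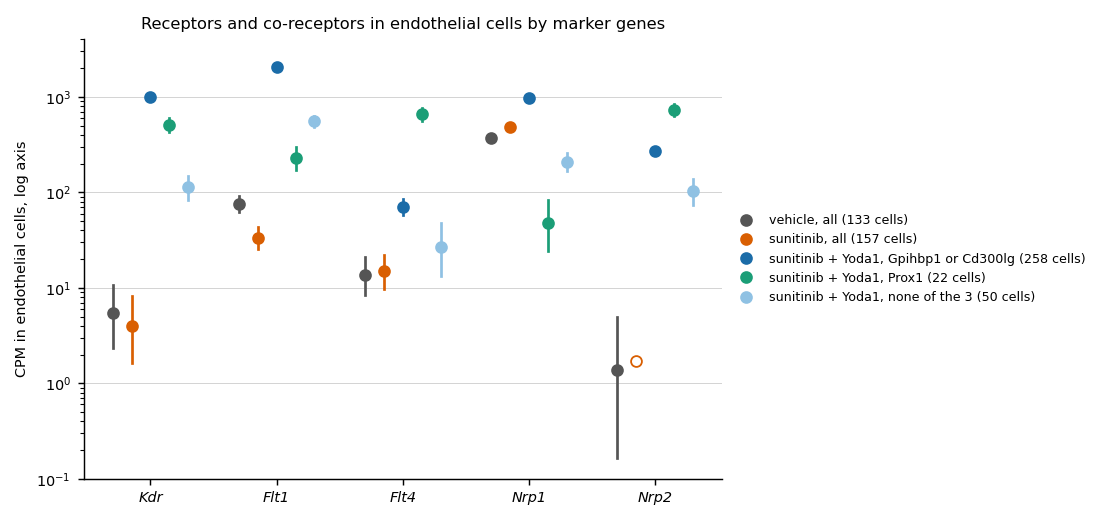
CPM of the 5 receptor and co-receptor genes in endothelial cells (y axis, log), for all cells of the vehicle and sunitinib libraries and for 3 marker-defined groups of the sunitinib plus Yoda1 library, with 95% Poisson intervals; the open circle is 0 UMIs of Nrp2 drawn at the 3-UMI level. Flt4 and Nrp2 are highest in the Prox1 cells (662 and 725 CPM), and Kdr, Flt1 and Nrp1 in the capillary-marked cells (998, 2061 and 963 CPM). The Prox1 group includes cells that also had a capillary marker, while the capillary-marked group had no Prox1 UMI.

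Receptor pairs were counted in the same endothelial cells, since Nrp1 presents Vegfa to Kdr. Kdr and Flt1 were both found in 2.26% (0.468 to 6.45), 1.91% (0.396 to 5.48) and 74.5% (69.5 to 79.2) of endothelial cells with vehicle, sunitinib and sunitinib plus Yoda1. For Kdr with Nrp1 the shares were 3.76%, 3.82% and 69.4%, and for Nrp1 with Nrp2 they were 1.5%, 0% and 43.3%, where the 0 of 157 sunitinib cells permits at most 1.91%. After thinning to 2000 UMIs the shares with both Kdr and Flt1 were 0.787%, 0% and 59.7%. Of cells with Kdr, all 6 with sunitinib and 5 of 7 with vehicle also had Nrp1, beside 81.5% and 82.0% of all endothelial cells of those libraries.

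Among the ligands, Vegfa (ENSMUSG00000023951; mm10 chr17:46016993-46032369, minus strand), the main ligand of Kdr, was highest in the macrophages of the third library and in the endothelium of the first 2. Endothelial levels were 69.7 CPM (56.8 to 84.6), 44.9 CPM (35.5 to 56.0) and 12.8 CPM (8.53 to 18.6). Smooth muscle stood at 21.6 CPM (20.5 to 22.7), 14.2 CPM (13.3 to 15.2) and 12.8 CPM (7.14 to 21.1), so with vehicle the endothelial level was 3.23-fold the smooth muscle level. Macrophages held 103 CPM (86.9 to 122), fibroblasts 49.5 CPM (40.1 to 60.5), B cells 2.88 CPM and T cells 1.38 CPM. The macrophage value came from 29 of 99 cells, with up to 21 UMIs in a single cell.

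Vegfb (ENSMUSG00000024962; mm10 chr19:6982473-6987651, minus strand), a ligand of Flt1, was the most even of the ligands across libraries in smooth muscle, with 45.4 CPM (43.8 to 47.0), 46.7 CPM (45.0 to 48.4) and 46.8 CPM (35.3 to 60.9). Endothelium held 24.6, 13.8 and 15.1 CPM, fibroblasts 19.8 CPM, B cells 8.99 CPM, macrophages 8.85 CPM and T cells 6.50 CPM. Smooth muscle was thus the highest class for Vegfb in each library, and the B cell, macrophage and T cell intervals overlapped.

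Vegfc (ENSMUSG00000031520; mm10 chr8:54077606-54187096, plus strand), the ligand of Flt4, was an endothelial and fibroblast gene here. Endothelium held 16.4 CPM (10.5 to 24.4), 16.1 CPM (10.7 to 23.3) and 61.4 CPM (51.5 to 72.8), and fibroblasts 38 CPM (29.8 to 47.8). Smooth muscle stood at 1.46, 1.39 and 5.11 CPM, the last from 6 UMIs. Macrophages held 0 Vegfc UMIs, which allows up to 2.21 CPM. Inside the third library the unmarked endothelial cells held more Vegfc than the capillary-marked ones, 147 CPM (112 to 189) against 40.8 CPM (31.3 to 52.4).

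Pgf (ENSMUSG00000004791; mm10 chr12:85166635-85177790, minus strand), a placental growth factor that binds Flt1 and not Kdr, was a smooth muscle gene in the first 2 libraries. Smooth muscle held 14.5 CPM (13.6 to 15.4), 24.6 CPM (23.4 to 25.9) and 13.6 CPM (7.78 to 22.1). Endothelium held 3 UMIs in each of the first 2 libraries (2.05 and 1.73 CPM) and 133 UMIs, 61 CPM (51.1 to 72.3), with sunitinib plus Yoda1. Those 133 UMIs lay in 16 of 330 endothelial cells (4.85%), so the endothelial Pgf level of that library described few cells. Fibroblasts held 14.6 CPM, macrophages 1 UMI, and B and T cells 0, which allows up to 0.539 and 0.591 CPM.

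Because smooth muscle cells were most of the first 2 libraries, they also held most of the ligand UMIs there. Their share of Vegfa UMIs in kept cells was 92.0% with vehicle, 89.4% with sunitinib and 3.72% with sunitinib plus Yoda1. For Vegfb the shares were 97.7%, 97.2% and 19.2%, for Vegfc 79.7%, 70.7% and 2.35%, and for Pgf 97.8%, 98.5% and 8.74%. In the third library macrophages held 34.7% and fibroblasts 23.6% of Vegfa UMIs, endothelial cells 52.5% and fibroblasts 28.6% of Vegfc UMIs, and endothelial cells 72.7% of Pgf UMIs. These shares follow the cell numbers of each library as well as the level per cell, and cannot be read as amounts in the vessel wall.

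**Figure D3:**
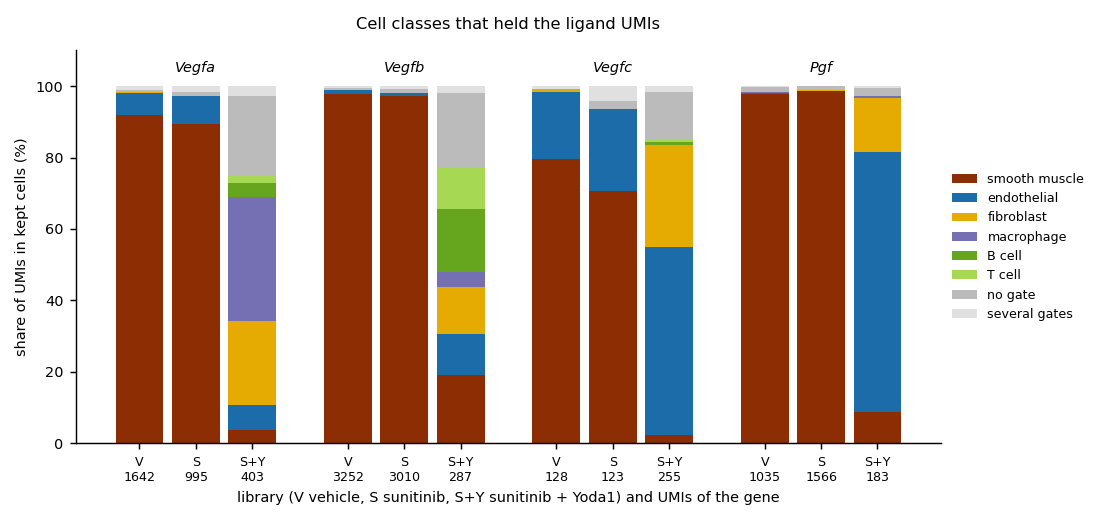
Share of each ligand's UMIs in kept cells (y axis, %) that lay in each class, for the 3 libraries, with the number of UMIs under each bar. Smooth muscle held 70.7% to 98.5% of each ligand with vehicle and sunitinib, and 2.35% to 19.2% with sunitinib plus Yoda1.

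Sunitinib was compared with vehicle in smooth muscle (3620 and 3634 cells) to see which receptor and ligand transcripts differ under kinase inhibition. Genes with at least 20 UMIs over both libraries were measured, and a gene was called higher or lower past 1.5-fold. Pgf was higher with sunitinib and Vegfa lower. Pgf stood at 24.6 against 14.5 CPM, a log2 ratio of 0.77 (0.65 to 0.88, exact conditional binomial interval), and a UMI was found in 19.6% against 13.3% of cells. Vegfa stood at 14.2 against 21.6 CPM, a log2 ratio of -0.60 (-0.72 to -0.48), with a UMI in 18.5% against 27.1% of cells. Both ligands bind Flt1, which itself stood at 13.4 against 15.6 CPM (log2 ratio -0.22, -0.35 to -0.09) and was within 1.5-fold. Nrp1 (-0.15, -0.28 to -0.02), Nrp2 (0.03), Vegfb (0.04) and Vegfc (-0.07) were within the fold too. Kdr and Flt4 had fewer than 20 UMIs. Of 7 measured genes, 1 was higher and 1 lower, beside 7.82% of 13970 genes higher and 4.79% lower, and their median log2 ratio was -0.07 against 0.09 over all genes. With TMM scaling of the same sums, 820 genes were higher and 848 lower instead of 1092 and 669, and the Pgf and Vegfa log2 ratios were 0.68 and -0.69. After thinning to 2000 UMIs Vegfa was within the fold (-0.56, -0.94 to -0.18), Pgf stayed past it (0.90), and Nrp2 passed it with an interval that included 0 (1.18, -0.09 to 2.59).

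**Figure D4:**
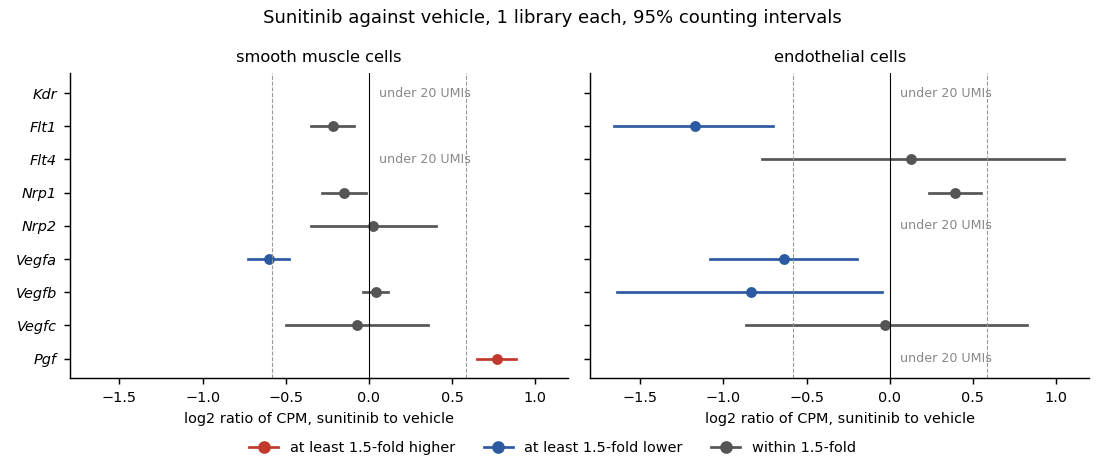
Log2 ratio of CPM, sunitinib to vehicle (x axis), of the 9 genes in smooth muscle (left) and endothelial cells (right), with exact conditional binomial 95% intervals and dashed lines at 1.5-fold. Pgf (0.77) and Vegfa (-0.60) lie past the fold in smooth muscle, and Flt1 (-1.17), Vegfb (-0.83) and Vegfa (-0.64) in endothelium.

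The Pgf difference was present in smooth muscle subsets that could differ in vessel of origin. Cells with a UMI of a Hox gene of paralogue group 9 or higher, which mark the posterior body, numbered 610 with vehicle and 557 with sunitinib. In them Pgf was 27.4 CPM (24.5 to 30.5) and 46.3 CPM (42.2 to 50.7), and in the 3024 and 3063 other cells 11.8 CPM (10.9 to 12.7) and 20.4 CPM (19.2 to 21.7). Pgf was therefore higher in the posterior Hox cells of both libraries, and the log2 ratio between libraries was 0.76 in them and 0.79 in the rest. Vegfa went from 24.0 to 16.5 CPM in the posterior Hox cells and from 21.1 to 13.8 CPM in the others, ratios of -0.54 and -0.62, the first of which was within 1.5-fold. Split by Rgs5, a mural cell gene, Pgf was 15.6 and 25.8 CPM in cells with 3 or more UMIs and 10.9 and 21.6 CPM in the rest. Vegfa in the same groups was 23.3 and 14.8 CPM, and 16.2 and 12.6 CPM, with ratios of -0.65 and -0.37. For Vegfa the cells with fewer than 3 Rgs5 UMIs were thus within the fold. Both splits were chosen after seeing the data.

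**Figure D5:**
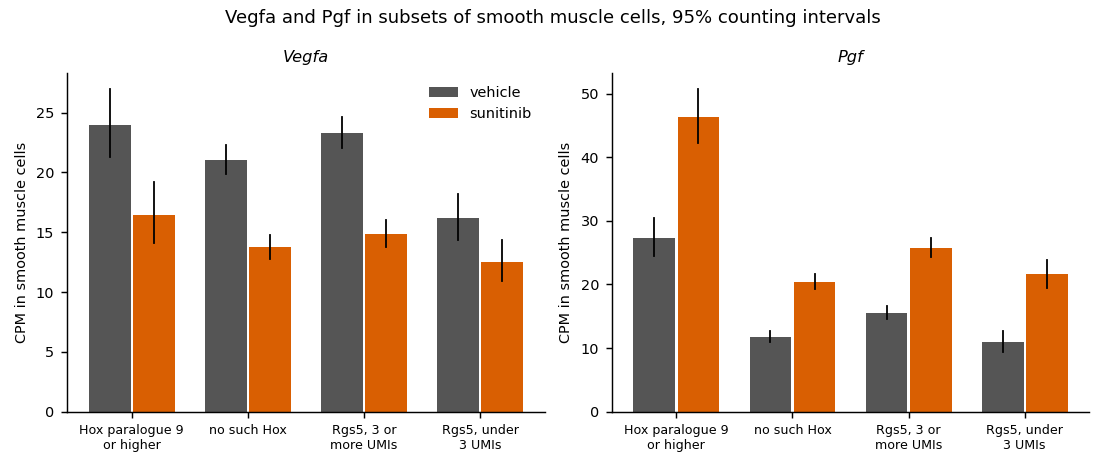
Vegfa (left) and Pgf (right) CPM in subsets of smooth muscle cells (y axis from 0), vehicle and sunitinib side by side, with 95% Poisson intervals as lines. Pgf is higher with sunitinib in all 4 subsets (20.4 to 46.3 CPM against 10.9 to 27.4 CPM) and Vegfa lower (12.6 to 16.5 CPM against 16.2 to 24.0 CPM).

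In endothelium, sunitinib (157 cells) and vehicle (133 cells) differed most in Flt1, at 33.4 against 75.2 CPM and a log2 ratio of -1.17 (-1.66 to -0.70). A single vehicle cell that carried capillary markers held 12 of the 110 vehicle Flt1 UMIs, and without such cells the ratio was -1.01 (-1.51 to -0.53). Vegfa was lower at 44.9 against 69.7 CPM (-0.64, -1.08 to -0.20), and Vegfb at 13.8 against 24.6 CPM (-0.83, -1.64 to -0.05), the latter from 24 and 36 UMIs. Nrp1 was within the fold at 484 against 369 CPM (0.39, 0.23 to 0.55), as were Flt4 (0.13) and Vegfc (-0.03). Kdr, Nrp2 and Pgf had fewer than 20 UMIs. Of 6 measured genes, 0 were higher and 3 lower, beside 13.4% of 8931 genes higher and 5.52% lower, with a median log2 ratio of -0.33 against 0.13 over all genes. The endothelial count was unstable: with looser gates, or with cells thinned to 2000 UMIs, 1 gene was lower. With TMM scaling 855 genes were higher and 718 lower, instead of 1201 and 493. Summed smooth muscle markers in these endothelial cells were 889 CPM with vehicle and 2043 CPM with sunitinib, all 8 markers being detected in both, and their part in these ratios was not tested.

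Sunitinib plus Yoda1 was compared with sunitinib to see what the Piezo1 agonist adds, with the limits on this library given above. In endothelium 6 of 9 genes were higher and 1 lower, beside 37.1% of 10305 genes higher and 20% lower. The median log2 ratio of the 9 genes was 3.13 against 0.22 over all genes. Kdr had a ratio of 7.59 (6.54 to 8.91), Flt1 5.55 (5.18 to 5.95), Pgf 5.14 (3.56 to 7.44), Flt4 3.13 (2.55 to 3.77) and Vegfc 1.93 (1.34 to 2.57). Nrp2 was at least 169-fold higher against the level of 3 UMIs in the sunitinib sum. Vegfa was lower (-1.81, -2.48 to -1.17), and Nrp1 (0.56) and Vegfb (0.13) were within the fold. Vegfa in the unmarked cells was 45.3 CPM with sunitinib and 41.6 CPM, from 17 UMIs, with sunitinib plus Yoda1 (-0.12, -0.97 to 0.65). The capillary-marked cells held 5.27 CPM. The interval of the unmarked cells included 0 and also a fall past 1.5-fold, so it cannot say whether Vegfa was lower in them. Summed erythroid markers in the endothelial sums were 2.88 CPM with sunitinib and 25981 CPM with sunitinib plus Yoda1, and their part in these ratios was not tested.

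In smooth muscle, where the sunitinib plus Yoda1 library had 77 cells, 3 of 7 measured genes were higher and 1 lower, beside 39.4% of 13169 genes higher and 9.8% lower. Nrp1 was higher at 66.4 against 13.4 CPM (log2 ratio 2.31, 1.95 to 2.64), Nrp2 at 13.6 against 1.83 CPM (2.89, 2.04 to 3.65) and Vegfc at 5.11 against 1.39 CPM (1.88, 0.39 to 3.06). Pgf was lower at 13.6 against 24.6 CPM (-0.85, -1.67 to -0.15), from 16 UMIs in 12 cells. Flt1 (0.19), Vegfa (-0.15) and Vegfb (0.00) were within the fold. The median of these 7 ratios was 0.19, below the 0.32 of all genes. With TMM scaling 3601 genes were higher and 3274 lower, instead of 5185 and 1290; in endothelium the counts were 3289 and 2644 instead of 3819 and 2064. Summed markers of other cells in the smooth muscle sums of sunitinib and of sunitinib plus Yoda1 were 0.798 and 4402 CPM (erythroid, 2 and 3 of 3 detected), 39.7 and 85.1 CPM (endothelial, 8 and 4 of 8), 2.49 and 11.1 CPM (macrophage, 4 and 3 of 7) and 0.0638 and 10.2 CPM (B cell, 1 and 3 of 4), and their part in these ratios was not tested. After thinning to 2000 UMIs, 5 genes were measured, with Nrp1 higher (2.73) and Vegfb lower (-0.92), and none of the 77 cells of the third library had an Nrp2, Vegfc or Pgf UMI. In the third library's 15 posterior Hox cells Pgf stood at 50 CPM (24.0 to 91.9), from 10 UMIs, against 46.3 CPM with sunitinib. The log2 ratio was 0.11, with an interval that reached down to -0.96 and so included both 0 and -0.85. It cannot say whether the direction of the Pgf difference was kept in these cells.

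The libraries also differ in software version (Cell Ranger 6.0.0 for vehicle and sunitinib, 7.1.0 for sunitinib plus Yoda1), and the sources used here do not say whether intronic reads were counted. Genes were therefore put in 5 groups of equal size by intron length, group 1 having the shortest introns. In smooth muscle the median log2 ratio of sunitinib plus Yoda1 to sunitinib went from -0.01 in group 1 to 1.03 in group 5, and in endothelium from -0.35 to 1.30. Flt1, Nrp1, Nrp2 and Vegfc lie in group 5, Kdr and Flt4 in group 4, Vegfa and Pgf in group 2, and Vegfb in group 1. In group 5, the ratios of Nrp1, Nrp2 and Vegfc in smooth muscle (2.31, 2.89 and 1.88) exceeded the group median. So did those of Flt1, Vegfc and Nrp2 in endothelium (5.55, 1.93 and, against 3 UMIs, 7.40). The Vegfc interval included the group median in smooth muscle (0.39 to 3.06, from 6 UMIs) and lay just above it in endothelium (1.34 to 2.57). The ratios of Flt1 in smooth muscle (0.19) and of Nrp1 in endothelium (0.56) lay below the group median. The part of counting in these ratios was not tested. Between vehicle and sunitinib, made with the same version, the medians of the groups were 0.05 to 0.11 in smooth muscle.

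A list of 49 other genes of the pathway was described beside them, which held other ligands and semaphorins, co-receptors and partners, regulators of ligand transcription, signalling proteins and genes known to be induced by VEGF in endothelium. Between sunitinib and vehicle in smooth muscle, 1 of 44 measured genes was higher and 8 lower, beside 7.82% and 4.79% of all genes, with a median log2 ratio of -0.05 against 0.09. Of the lower genes, 7 were among the 11 measured VEGF-induced genes, whose median was -0.81. Rcan1, a calcineurin inhibitor, stood at 30.3 against 66.6 CPM (-1.14, -1.21 to -1.06), and Dusp5, an ERK phosphatase, at 15 against 31.5 CPM (-1.07, -1.18 to -0.96). The Notch ligand gene Dll4 (-2.50) and Esm1 (-2.0), a secreted proteoglycan of endothelial tip cells, rested on 19 and 76 vehicle UMIs. Adamts9, a secreted protease, was the gene that was higher (0.67), a call that was lost with TMM and with median-of-ratios factors, where 0 genes were higher and 9 lower. In endothelium 5 of 35 were higher and 4 lower, beside 13.4% and 5.52% of all genes, so the share higher was near that of all genes. The 8 measured VEGF-induced genes were split there, with 3 higher and 4 lower and a median of -0.57. The nuclear receptor gene Nr4a1 was lower (-1.29, -1.54 to -1.03), and Sema3d (2.34), Angpt2 (1.41) and Hlx (1.38) were higher, from 3, 6 and 11 vehicle UMIs and 18, 19 and 34 sunitinib UMIs.

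Between sunitinib plus Yoda1 and sunitinib, 23 of 40 measured pathway genes were higher and 4 lower in endothelium, beside 37.1% and 20% of all genes. Adamts9 stood at 501 against 2.88 CPM (7.44), Dll4 at 74.3 against 7.48 CPM (3.31, 2.50 to 4.25), and Apln, the apelin gene of endothelial tip cells, and Sema3a, a neuropilin ligand, were at least 55.8-fold and 31.4-fold higher against 3 UMIs. In smooth muscle 19 of 41 were higher and 4 lower, beside 39.4% and 9.8% of all genes, so both shares were near those of all genes. Nrarp (3.50), the semaphorin receptor gene Plxnd1 (2.84) and Angpt2 (2.45), which encodes a ligand of the receptor Tek, were among the higher genes and Egr3 (-2.59) among the lower. With TMM scaling 11 were higher and 9 lower.

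The genes most like each member over the 10 sums were named as a description, by Pearson's r of log2(CPM + 10) among 6328 genes. Sums of the same library share depth and cell source, so no p is given. Most like Kdr were Aplnr, Prox1 and Stab2 (r from 0.992 to 0.996), most like Flt1 were Spaar, Jag2 and Tcim (0.984 to 0.987), and most like Flt4 were Ushbp1, Cyyr1 and Epb41l4a (0.998 to 0.999). Nrp1 was nearest to Tcn2, Tmem176a and Sema6d (0.954 to 0.966) and Nrp2 to Cd36, Eepd1 and Pparg (0.963 to 0.968). For the ligands they were Hexa, Metrnl and Nfe2l2 for Vegfa (0.942 to 0.975), Mustn1, Hcfc1r1 and Pdlim7 for Vegfb (0.970 to 0.975), Cxcl12, Chrm3 and Arhgef28 for Vegfc (0.966 to 0.978), and Vwa1, Adamts9 and Sema3a for Pgf (0.938 to 0.958). For Kdr, Flt1, Flt4 and Nrp2 the single high sum, endothelium of the sunitinib plus Yoda1 library, weighed most in r.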

How the data were processed

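Single-cell RNA was measured in 3 libraries, 1 per group, grouped by their titles and the series design. The authors deposited raw UMI counts per gene and barcode, not normalized, which per the file headers came from Cell Ranger 7.1.0 for the combination and 6.0.0 for both other libraries. Per the submitters' processing notes, the genome build was mm10, and Seurat was used besides Cell Ranger. The annotation and any counting of intronic reads are not given in the sources used here. Library totals were 73901343, 66769480 and 28364203 UMIs.

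Barcodes needed 500 UMIs, 300 genes and a mitochondrial share of no more than 15%. A cell took a class when it passed exactly 1 of 6 gates on raw UMIs: Myh11 and Acta2 at 10 or more each, Pecam1 and Cdh5 at 1 or more each, Dcn at 2 and Pdgfra at 1 or more, Csf1r at 2 or more, Cd79a and Ms4a1 at 1 or more each, or Cd3d and Cd3e at 1 or more each. Cells passing several gates (25, 23 and 36) or none (146, 341 and 840) had no class. No doublet caller was run, and the exclusive gates stood in for it.

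Counts were summed per class and library and scaled to CPM. Poisson, Clopper-Pearson and conditional binomial 95% intervals cover counting error only, and a count of 0 was given the limit of 3 UMIs. Ratios needed 20 UMIs over both libraries, and calls were past 1.5-fold. The planned rule also asked that the interval exclude 0. With it the member counts were the same and all-gene counts were smaller, 817 higher and 491 lower for sunitinib against vehicle in smooth muscle. Thinning drew 2000 UMIs per cell. Alternatives were TMM (edgeR 4.0.16) and median-of-ratios factors (DESeq2 1.42.0), mitochondrial limits of 10% and 5%, looser and stricter gates, means over cells, thinning, leaving out the 5% deepest cells, no UMI minimum and endothelial subsets. Python 3.11.15 and R 4.3.3 were used, and the ratio step was tested on simulated data. Coordinates are from GENCODE on GRCm38, and motif and promoter letters from RefSeq.

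The 9 genes, the pathway and marker lists and the subsets were chosen with earlier results of these data known. Named beyond the 9 were gate genes, 6 endothelial genes, at most 4 called pathway genes per comparison by size of ratio, and the 3 genes most like each member with at least 50 CPM in a sum and 100 UMIs in all. Other genes named were chosen after their values were seen.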

Additional observations from a re-analysis of the deposited data

Results flagged for a closer look

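Nrp1 had opposite directions in the 2 classes between sunitinib and vehicle, with a log2 ratio of -0.15 in smooth muscle and 0.39 in endothelium. Both were within 1.5-fold, and the difference between the classes was not tested.

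Cells of the sunitinib plus Yoda1 library that passed no gate, which the comparisons did not use, held Kdr at 36.6 CPM (30.8 to 43.2) and Flt1 at 62.7 CPM (55.0 to 71.1), against 0.719 and 3.06 CPM in the B cells of that library. A Kdr UMI was found in 50 of the 840 cells and a Flt1 UMI in 60.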

How the results depend on the processing

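No paired analysis was possible because each group had 1 library, and for the same reason no replicate could be left out. Of the counts of members and pathway genes past 1.5-fold under an alternative, 98 were within 1.5 times the reported count and 6 were not. Members past the fold between sunitinib and vehicle in endothelium numbered 1 with looser gates and 1 after thinning, against 3. Pathway genes in that comparison numbered 4 after thinning, against 9. All genes there gave 1190 higher and 466 lower of 8243 with looser gates, and 607 and 340 of 3735 after thinning. Members between sunitinib plus Yoda1 and sunitinib in smooth muscle numbered 2 after thinning (1 higher and 1 lower of 5 measured), against 4. Of all genes, 4371 were then higher and 1591 lower of 10242. Between sunitinib and vehicle in smooth muscle thinning gave 2 higher and 0 lower of 7 measured members, beside 892 higher and 477 lower of 11113 genes. Members between sunitinib and vehicle in smooth muscle numbered 1 in posterior Hox cells and 1 in cells with fewer than 3 Rgs5 UMIs, against 2. Fewer UMIs or cells entered each of the thinned and subset counts, and the cause was otherwise not tested. The log2 ratio of Pgf between sunitinib plus Yoda1 and sunitinib in smooth muscle was 0.11 in posterior Hox cells, against -0.85. In the third library those were 15 cells with 10 Pgf UMIs, and the interval of the ratio, from -0.96 upward, included both 0 and -0.85. At most 5% mitochondrial UMIs, 9 smooth muscle cells were left in the third library. Against sunitinib, 1 of 5 measured members was then higher and 3 lower, beside 3456 higher and 1833 lower of 9587 genes.

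Over the alternatives for sunitinib against vehicle, the smooth muscle log2 ratio of Pgf ranged from 0.66 to 1.38 and was past the fold in all 14, and that of Vegfa from -0.71 to -0.37, past it in 11. In endothelium Flt1 ranged from -1.49 to -1.01 over 12 alternatives, Vegfa from -0.78 to -0.42 and Vegfb from -1.97 to -0.51. Against sunitinib, endothelial Kdr with sunitinib plus Yoda1 ranged from 4.98 to 8.16 and Nrp1 from -1.43 to 0.81. Both scalings moved all log2 ratios together, by -0.09 and -0.10 (smooth muscle) and -0.11 (endothelium) for sunitinib against vehicle, and by -0.38 and by -0.17 and -0.19 for sunitinib plus Yoda1 against sunitinib. Counts over all genes were 3187 (smooth muscle) and 3249 (endothelium) without a UMI minimum against 1761 and 1694 for sunitinib against vehicle, and after thinning 947 against 1694, and 3887 against 5883 for sunitinib plus Yoda1, in endothelium. Asking that intervals exclude 0 left 549 higher and 246 lower genes in endothelium between sunitinib and vehicle, and 3190 and 744 in smooth muscle between sunitinib plus Yoda1 and sunitinib. Kdr, Nrp2 and Pgf had 0 to 8 UMIs in the endothelial sums of the first 2 libraries, too few for a ratio between them.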

Other observations

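In the sunitinib plus Yoda1 library the 68 T cells with an Nrp1 UMI differed from the 538 without in genes of regulatory T cells, which were chosen after their values were seen. Foxp3, the lineage transcription factor, had a UMI in 45.6% (33.5 to 58.1) against 2.97% (1.71 to 4.78) of cells. For Ikzf2, which encodes Helios, the shares were 72.1% and 16.4%, and for Il2ra, the interleukin 2 receptor alpha chain, 63.2% and 3.90%. Cd8a, of cytotoxic T cells, had a UMI in 8.82% and 45.0%. Median depths were 7462 UMIs with Nrp1 and 7918 without.

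The 16 endothelial cells with a Pgf UMI in that library also held Apln in 14 cells (87.5%), against 8 of the 314 cells without Pgf (2.55%). Their median depth was 10201 UMIs against 4877, and the part of depth in the Apln difference was not tested. Among macrophages, Hilpda, a lipid droplet gene induced by hypoxia, had a UMI in 51.7% (32.5 to 70.6) of the 29 cells with Vegfa and 24.3% (14.8 to 36) of the 70 cells without, at median depths of 13466 and 12064 UMIs. Apln and Hilpda were also chosen after their values were seen.

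Vegfd, the other ligand of Flt4, was examined in smooth muscle and endothelium only. Smooth muscle held 16.7 CPM with vehicle, 14.9 CPM with sunitinib and 28.9 CPM with sunitinib plus Yoda1, the last from 34 UMIs. Endothelium held 5, 1 and 8 Vegfd UMIs. Fibroblasts and macrophages were not examined for it, so its highest class is not known.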
